A study of Mus musculus with 47 samples.

Results

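The livers of 6 mice on the Control diet were compared with 3 other tissues of mice on that diet, gene by gene. The members were chosen by label alone: 24 of the 47 libraries of the series, namely 6 from Liver, 6 from Brown Adipose Tissue (BAT, the interscapular depot), 6 from Inguinal White Adipose Tissue (IWAT) and 6 from Skeletal Muscle (SM, the gastrocnemius). All animals were male C57BL/6J mice that had eaten the Control diet freely from 5 weeks of age for 11 weeks at 23 C, and had been fasted for 5 h before the tissues were taken. The labels name no transgene or deletion, and 7 to 12 ng of RNA went into each library. The same 6 numbers appear in all 4 tissues and are taken here to be the same 6 animals, which the labels do not state in words. A library is called by its tissue and animal number, as in Liver3114. Other mice of the series ate a diet with Methionine Restriction, and their libraries were used only where they are named. The question the comparison answers is which transcripts set the liver apart from fat and muscle on the same diet.

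Most liver cells by mass are hepatocytes, which make the proteins of blood plasma, take up and release glucose, build urea from ammonia, convert cholesterol to bile acids, and alter drugs and steroids so that they can be excreted. Macrophages, sinusoidal endothelium, stellate cells and bile duct cells make up most of the rest. Brown fat burns lipid for heat, inguinal white fat stores it, and gastrocnemius is mainly fast-twitch muscle. In whole tissue, fewer cells of a type and less RNA per cell cannot be told apart.

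The libraries were SOLiD SAGE libraries, in which a short tag is read from 1 site near the 3′ end of each transcript, next to a CATG that the enzyme cuts. A gene's value is therefore a count of such tags, which does not grow with transcript length. Values are given in CPM, counts as a share of the library on a common scale, after TMM scaling over the 24 libraries, which corrects for differences in composition. The tags below were predicted from annotated coding transcripts as the last CATG with the 23 bases after it, with the CATG in capitals. They are shown because the counts rest on such tags, though the tags counted for a gene need not be those predicted.
Alb: CATGaagactcaggactcatcttttct
Apoa1: CATGctggagacgcttaagacccaagt
Mup3: CATGgaaattctccattgatttctttc
14 Mup genes: CATGaatttcttcctcttcctgttcaa
Serpina1a, Serpina1b, Serpina1d and Serpina1e: CATGagtccactgggcatcacccggat
The tags of Alb, Apoa1 and Mup3 were predicted for no other coding gene. Pseudogenes and non-coding genes were not searched. The fourth tag was shared by 14 of 21 Mup genes with a predicted tag, and the last by 4 genes of the alpha-1 antitrypsin family. Per the labels only fragments with a unique place among RefSeq genes were kept. Among coding genes, 53.6% of the 18459 with a tag of their own had at least 60 tags summed over the 6 liver libraries, against 7.84% of the 1173 whose every tag was shared, of which 1007 had none. The gap was wide in the Mup genes (100% of 5 against 30.8% of 13). It was small in cytochrome P450 families 1 to 4 (57.9% of 57 against 54.5% of 11) and glucuronosyltransferases (66.7% of 12 against 57.1% of 7). Whether sharing lowered a given value was not tested. A low or absent value of a gene whose every tag is shared is not taken as a measure of its level.

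Depth ran from 4887004 to 13117537 tags per library, and from 10011213 to 12130444 in liver. In a gene with 0 tags, 3 counts were taken as the limit, which over the 6 libraries of a group is 0.0519 CPM in BAT, 0.0584 in IWAT, 0.06 in Liver and 0.0554 in SM and covers counting error only. The tissue labels went with their markers: the 10 hepatocyte markers together reached 180000 to 315000 CPM in liver and all 10 were found in each liver library. Hepatocyte transcripts also appeared in libraries labelled as other tissues, most in BAT3106 (3150 CPM summed, next BAT library 121), IWAT3103 (8700) and IWAT3114 (2870), with medians of 66.4 in BAT, 738 in IWAT and 40.6 in SM. All 10 markers were found in those 3 libraries, whereas Serpina1a was at 0 in the other BAT libraries. In the opposite direction, Liver3114 held 832 CPM of the 9 muscle fibre markers, against at most 56.1 in the other liver libraries, and 201 CPM of the 7 white adipocyte markers, against at most 110. Lymphocyte markers stood at 1580 CPM in IWAT3107 and 401 in BAT3106. IWAT3106 and IWAT3115 had the lowest rank correlation with their own tissue (medians of 0.697 and 0.775). Counts of genes, and some list medians and fold changes, are also given without some of these libraries. Lists given below with a single median could move as well. Without BAT3106, IWAT3103 and IWAT3114, the median log2 fold change of amino acid breakdown went from 8.12 to 9.28. That of portal genes went from 8.12 to 9.22 and that of acute phase genes from 7.59 to 8.59.

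**Figure D1:**
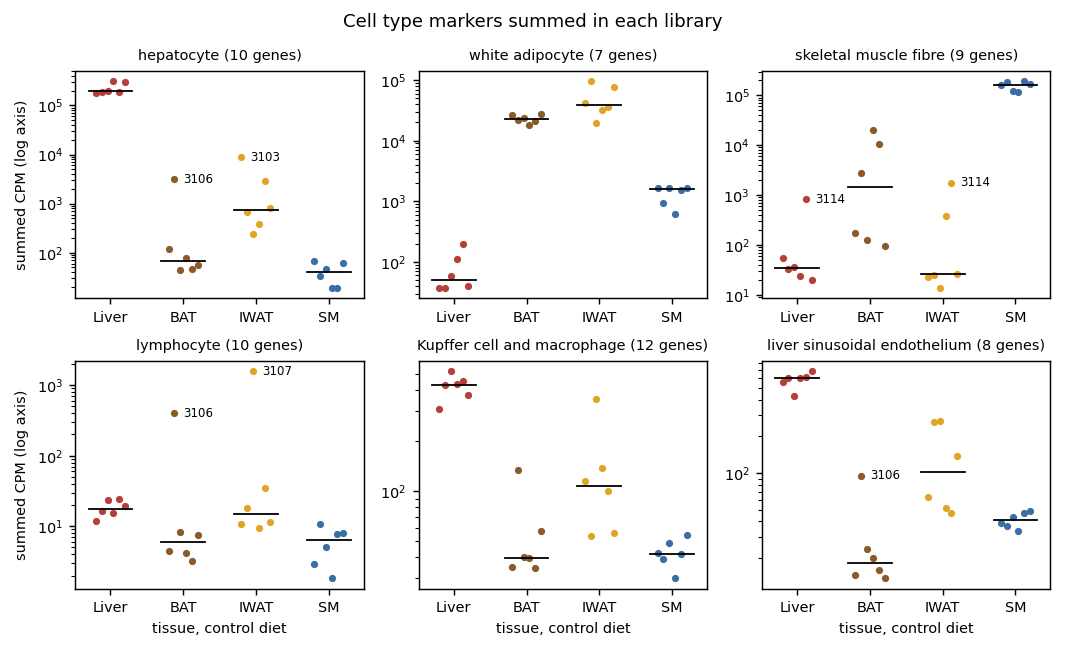
CPM summed over the markers of 6 cell types (log axis) in each control-diet library, with 1 point per library and a line at the group median. A library is numbered where it lies more than 3 times above the next of its group, as BAT3106 (3150 CPM) and IWAT3103 (8700 CPM) do for hepatocyte markers and Liver3114 (832 CPM) does for muscle fibre markers.

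Liver differed from the mean of the other 3 tissues in most genes. Of 12854 genes tested, 3503 (27.3%) were higher in liver and 3915 (30.5%) were lower by edgeR's quasi-likelihood test at an adjusted p under 0.05, together 57.7%. A stricter reading asked for a difference of the same sign from each tissue, and 1734 genes (13.5%) were then higher than each and 1515 (11.8%) lower than each. Tested against a 2-fold difference from the mean, 1885 (14.7%) were higher and 2181 (17%) lower. In 1552 genes (12.1%) every liver library lay above all 18 others, and in 808 (6.29%) every liver library lay below them. A gene could be tested on enough tags in liver alone, and could then hardly be called other than higher. The share of a list's tested members that were higher is partly set in this way. The median log2 fold change over all genes was -0.07. The split depended on scaling: 47.2% of called genes were higher in liver with TMM factors, 38.1% with upper-quartile factors and 28% with none. The median of all genes then lay at -0.28 and -0.56. Without BAT3106, IWAT3103 and IWAT3114, 3579 genes were higher and 3896 lower, and 1638 and 1375 were so against each tissue. Without IWAT3106 and IWAT3115, 4190 were higher and 4591 lower, and 2182 and 1904 were so against each tissue.

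Albumin (Alb), the main carrier protein of plasma, lies on chromosome 5 at 90460870 to 90476602 of GRCm38.p6. In liver its lowest, median and highest values were 131000, 151000 and 267000 CPM, or 10.5 to 19.2% of the raw tags of a liver library. The corresponding values were 20.4, 46.8 and 2460 in BAT, 186, 633 and 7950 in IWAT and 14.6, 30.6 and 55.7 in SM. No library of another tissue came near the lowest liver library, and the highest of each fat were BAT3106 and IWAT3103. The log2 fold change was 9.23 ± 0.86 (SE, n = 6 animals per tissue, adjusted p = 1.36e-09), and 11.06 without BAT3106, IWAT3103 and IWAT3114. Apoa1, the main protein of high-density lipoprotein, on chromosome 9 at 46228630 to 46230469, ran at 16400, 20600 and 23000 CPM in liver. It ran at 1.26, 3.12 and 334 in BAT, 4.58, 19 and 268 in IWAT and 0.713, 1.34 and 8.87 in SM. The groups were again apart, by 9.73 ± 1.02 on the log2 scale (adjusted p = 1.07e-08), and by 12.13 without those 3 libraries.

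**Figure D2:**
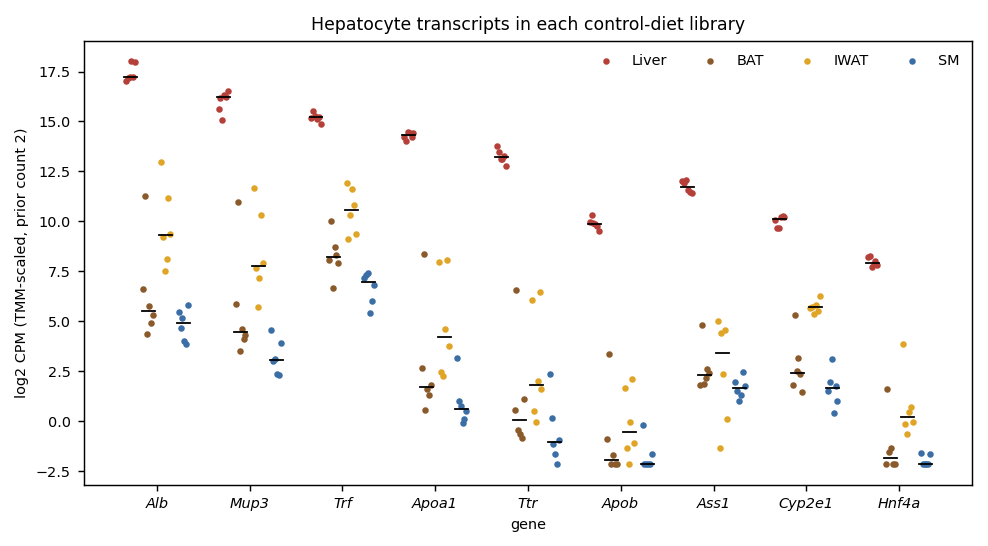
Expression of 9 liver transcripts as log2 CPM (prior count 2) in each of the 24 libraries, with 1 point per library coloured by tissue and a line at the median of 6. Every liver point lies above every point of the other tissues, and the highest BAT and IWAT points of Alb (2460 and 7950 CPM) are BAT3106 and IWAT3103.

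Plasma proteins were higher in liver almost without exception. All 26 listed carriers and other plasma proteins were tested, and 26 were higher than each tissue (median log2 fold change 8.91, range 4.19 to 10.3). All 23 genes of coagulation and fibrinolysis were higher than the mean and 22 were higher than each (median 9.12, or 9.02 with genes at 0 in a group set to the limit above). All 18 tested complement genes of 20 listed were higher than each tissue (median 7.82). These medians are to be read beside -0.07 for all genes, and were 10.7, 10.6 and 8.76 without the 3 fat libraries that held hepatocyte transcripts. Transferrin (Trf), the iron carrier, had 30500, 37800 and 46800 CPM in liver as lowest, median and highest, against at most 1040 in BAT, 3820 in IWAT and 173 in SM. Its fold change was 6.42 ± 0.39. Selenoprotein P (Sepp1), which carries selenium, was made in all 4 tissues: 9670, 11000 and 12200 CPM in liver, and medians of 834, 945 and 308 in BAT, IWAT and SM. It was the least different of the carriers at 4.19 ± 0.17, and still without overlap. Plasminogen (Plg), the precursor of the enzyme that dissolves fibrin, lay at 1610 to 2390 CPM in liver and had medians of 0.04, 0.09 and 0.05 elsewhere, with 20.4 in BAT3106 and 12.8 in IWAT3114. Its fold change of 10.63 ± 1.12 became 13.94 without the 3 libraries.

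Retinol-binding protein (Rbp4), which carries vitamin A, showed a different pattern from plasminogen, since white fat also held it. Liver ran at 2310, 3380 and 4820 CPM and IWAT at 122, 281 and 739, with a BAT median of 94.4 and an SM median of 5.38. The liver mean was 10.4 times that of IWAT and 648 times that of SM. The kininogen Kng2 likewise had a second tissue: 87 to 142 CPM in liver and 20.3 to 43.9 in BAT, against medians of 0.16 in IWAT and 0 in SM. Complement C3, the protein on which the complement pathways converge, lay at 23, 31.4 and 47.9 CPM in liver and 1.7 to 5.67 in BAT. C9 of the membrane attack complex had 12.8 to 16.2 CPM in liver, against 2, 3 and 0 tags in all of BAT, IWAT and SM.

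Acute phase genes, which are turned on in the hepatocyte by inflammation, were mostly higher as well: 12 of 16 listed were tested, 11 were higher than the mean and 10 than each (median 7.59, or 7.01 with the limit). The exception was Orm3, 1 of the orosomucoids, with 1.16, 1.81 and 3.92 CPM in liver against 14.8, 27 and 36.8 in BAT and 4.12, 6.66 and 22.4 in IWAT. Every liver library lay below every fat library, while SM held 8 tags in all, so the difference from the mean of 3 was -0.72 ± 0.43 (adjusted p = 0.16). Its relative Orm1 was higher in liver, at 14.1 to 21.6 CPM against at most 6.68 in BAT, with a fold change of 4.32 ± 0.34. The amyloid P component Apcs had 5.42 to 11.8 CPM in liver and 0 tags in SM, at least 152 times higher.

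Apolipoproteins and the genes that assemble lipoproteins gave 20 of 21 higher than the mean and 19 higher than each (median 8.63, and 10.2 without the 3 libraries). Apob, the structural protein of very low-density lipoprotein, ran at 724, 944 and 1280 CPM in liver. Its medians were 0.04 in BAT, 0.51 in IWAT and 0 in SM, and its highest value outside liver was 9.97, in BAT3106. The fold change was 10.38 ± 0.87, and 12.51 without the 3 libraries. Mttp, which loads lipid onto Apob, ran at 145 to 373 CPM in liver and at most 13.3 elsewhere. Apoe, which macrophages and fat also make, stood at 17600 to 23000 CPM in liver, 66.7 to 1680 in IWAT and 43 to 132 in SM, a fold change of 5.93 ± 0.41. The exception was Pon3, an antioxidant enzyme of lipoproteins, with medians of 28.2 CPM in liver, 39.4 in BAT, 39.1 in IWAT and 8.3 in SM (0.28 ± 0.19, adjusted p = 0.22).

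The major urinary proteins, pheromone carriers that the male mouse liver secretes, include genes with a predicted tag of their own and genes that share one. Mup3, on chromosome 4 at 62083476 to 62087317 and with a tag of its own, lay at 34100, 75800 and 93800 CPM in liver, with a fold change of 8.84 ± 0.91 that became 10.93 without the 3 libraries. Mup10, Mup12 and Mup15 carry the shared tag and had means of 222, 106 and 48.8 CPM, while Mup1, Mup2, Mup7, Mup8, Mup9, Mup13, Mup14 and Mup20 carry it too and had 0 tags in all 6 liver libraries. The shared tag is the only one predicted for Mup10 and Mup15, which had 11115 and 2386 tags in liver. Which tags were counted for them is not known. Of 18 Mup genes counted, 8 were tested and 8 were higher than each tissue (median 8.83, and 10.7 without the 3 libraries). Those that passed the count filter through liver alone could hardly be called otherwise. The alpha-1 antitrypsin genes share a tag in the same way, though Serpina1a also has a predicted tag of its own. Which tags were counted for Serpina1a (107 to 244 CPM in liver), Serpina1b (147 to 262) and Serpina1d (93.1 to 252) is uncertain. Each of the 3 had at most 1.8 CPM in any other library.

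Nitrogen metabolism set liver apart on a similar scale. All 12 genes of the urea cycle and ammonia handling were higher than the mean and 11 than each (median 7.57, and 8.74 without the 3 libraries), as were 30 and 26 of the 32 tested genes of amino acid breakdown among 34 listed (median 8.12, or 7.88 with the limit). Ass1, argininosuccinate synthase of the urea cycle, had 2700, 3420 and 4280 CPM in liver. It had medians of 4.75 in BAT, 13.2 in IWAT and 2.94 in SM, with no value above 32.1, and a fold change of 8.90 ± 0.59 (9.53 without the 3 libraries). Car5a, the mitochondrial carbonic anhydrase that supplies bicarbonate to the cycle, was low and even in the other tissues: 110, 121 and 143 CPM in liver against 1.96 to 5.85 across all 18 other libraries, a fold change of 5.07 ± 0.17 (adjusted p = 2.74e-16). Cps1, which commits ammonia to the cycle, was looked at after its values were seen, and had only 1801 tags over the 6 liver libraries. Its predicted tag is rich in T.
Cps1: CATGcaacatttttttttctttctttc
Whether that sequence bears on the count was not tested. Fah, the last enzyme of tyrosine breakdown, lay at 1290 to 1480 CPM in liver but also at 143 to 259 in BAT and 123 to 352 in IWAT, and reached 14.5 at most in SM. Bcat2, the mitochondrial aminotransferase that starts the breakdown of branched-chain amino acids outside the liver, was lower than each tissue. It had 14.6, 16.5 and 20.8 CPM in liver against medians of 53, 56 and 45.5 in BAT, IWAT and SM (-1.55 ± 0.42, adjusted p = 0.00257). All liver libraries lay below all of BAT and SM, but IWAT3106 and IWAT3115, with 1.71 and 11.1 CPM, lay below liver.

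Methionine and one-carbon genes, which pass methyl groups from methionine and folate, were mostly higher too: 20 of 22 were tested, 18 were higher than the mean and 17 than each (median 5.22). Ahcy, which clears S-adenosylhomocysteine, had 1890, 2160 and 3100 CPM in liver and at most 84.8 in any other library (5.83 ± 0.28). Pemt, which makes phosphatidylcholine with methyl groups from S-adenosylmethionine, had 584 to 1140 CPM in liver and at most 61.8 elsewhere (5.63 ± 0.25). Sardh, which oxidises sarcosine, lay at 223 to 338 CPM in liver and at most 20.6 elsewhere. Both others were not called. Mat2a, the S-adenosylmethionine synthetase of non-hepatic tissues, had medians of 128 CPM in liver, 106 in BAT, 171 in IWAT and 258 in SM (-0.29 ± 0.15, adjusted p = 0.099). Mthfd2, a mitochondrial folate enzyme, had medians of 1.06 CPM in liver, 0.85 in BAT, 0.58 in IWAT and 1.54 in SM.

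Genes of glucose production and sugar handling were higher in 17 of 20 cases and higher than each tissue in 13 (median 4.92). Khk, ketohexokinase, which starts fructose breakdown, had 658, 1130 and 1700 CPM in liver and 2.92 to 54.3 elsewhere, so no value came close (5.52 ± 0.33). Glyctk, the glycerate kinase of fructose and serine breakdown, had 176 to 230 CPM in liver and at most 18.2 elsewhere (5.97 ± 0.26). Gys2, the liver form of glycogen synthase, lay at 150 to 295 CPM in liver, but also at 45.5 to 78.4 in BAT and 19.9 to 47.7 in IWAT. In SM it did not pass 1.07, and the liver mean was 457 times as high. Gpd1, which links glycolysis to glycerol lipid, went the other way: medians of 509 CPM in liver, 5870 in BAT, 878 in IWAT and 355 in SM, lower than the mean by 1.47 ± 0.44 on the log2 scale but not lower than SM. Ppp1r3c, a glycogen-targeting subunit of protein phosphatase, and Adpgk, an ADP-dependent glucokinase, were not called.

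Ketone bodies are made by the liver and used elsewhere. All 4 genes of synthesis were higher than the mean and 3 than each (median 4.23). Of 5 genes of ketone use 3 were higher than the mean (Acat1, Bdh1 and Slc16a7), 1 was lower (Oxct1) and 1 was not called (Slc16a1), with a median of 0.62. Bdh1, which converts between the ketone bodies in both directions, had 180 to 267 CPM in liver. SM also held it, at 13.1 to 68.2 CPM, while the fats had medians of 1.39 and 1.87. Oxct1, the transferase that ketone use requires, was lower in liver than in each tissue. Its lowest, median and highest values were 4.67, 6.06 and 18.3 CPM in liver and 161, 194 and 232 in BAT. They were 121, 199 and 448 in IWAT and 360, 376 and 413 in SM, with no overlap (-4.99 ± 0.37, adjusted p = 2.03e-11). The monocarboxylate transporter Slc16a7, listed with ketone use, was higher than the mean in liver (2.97 ± 0.28) but overlapped with IWAT, whose highest library reached 117 CPM against 106.

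All 26 genes of bile acid synthesis and transport were higher than the mean and 24 than each (median 7.92, and 9.26 without the 3 libraries). Hsd3b7, an early enzyme of the pathway, ran at 357, 384 and 410 CPM in liver. The fats held it at medians of 29.6 and 32.7 and SM at 6.48, a fold change of 4.33 ± 0.23. Abcg5, a partner in the transporter that secretes sterols into bile, was nearly undetected outside liver: 9.23 to 22.6 CPM against 1 tag in all of BAT, 2 in IWAT and 0 in SM. Scp2, which shortens the bile acid side chain in peroxisomes, was expressed everywhere and 3.99 times higher in liver than in BAT.

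The enzymes that alter and conjugate foreign compounds divided by family. Of 71 cytochrome P450 genes of families 1 to 4, 37 had enough tags in some tissue to be tested. Of these, 32 were higher than the mean and 31 than each (median 7.81, and 8.91 without the 3 libraries). Those with tags almost only in liver, such as Cyp4f15, passed the count filter through it. Cyp2e1, which oxidises ethanol and small solvents, had 821, 1120 and 1240 CPM in liver, 2.58, 5.2 and 39.8 in BAT, 41, 51.8 and 78 in IWAT and 1.12, 2.94 and 8.44 in SM. The IWAT values were close to each other and were not led by the libraries with hepatocyte transcripts, and liver stood 19.5 times above them. Cyp4f15, which oxidises fatty acids and eicosanoids, had 500 tags in liver (8.57 to 11.4 CPM) and none in the other 18 libraries, at least 193 times more than in BAT, 172 in IWAT and 181 in SM. Cyp1b1, which oxidises oestrogens and aromatic hydrocarbons, was lower than the mean by 2.38 ± 0.56. Its median was 32.2 CPM in IWAT, 6.34 in BAT, and 1.39 in both liver and SM.

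All 11 tested glucuronosyltransferases of 20 listed were higher than each tissue (median 8.92, and 10.1 without the 3 libraries). So were 3 of 4 tested sulfotransferases of 18 listed (median 7.62, and 8.96 without the 3 libraries). Members such as Ugt1a5 had enough tags to be tested only in liver, so these counts were partly set by the count filter. Ugt1a5 had 8.85 to 15.1 CPM in liver against 1 tag in BAT, 1 in IWAT and 0 in SM. Glutathione S-transferases were mixed: 16 of 20 were tested, 10 were higher than the mean, 9 than each, 2 lower and 4 not called (median 1.91). Among all genes 27.3% were higher than the mean, 13.5% higher than each and 30.5% lower. Gsta3 had 6920 to 11500 CPM in liver, and up to 1070 in IWAT, where IWAT3103 and IWAT3106 had the highest values (1020 and 1070). Gsto2, an omega-class member, was the lowest of the family relative to the other tissues, with 5 tags over the liver libraries against 3.26 to 8.57 CPM in BAT (-3.32 ± 0.77). Gstm5 was lower at -1.86 ± 0.36, while Gsta4, Gstm2, Gstm4 and Gsto1 were not called. Alcohol, aldehyde and retinol genes were higher than the mean in 17 of 19 cases and than each in 15 (median 4.41). Adh1, class I alcohol dehydrogenase, had 1590, 1990 and 2620 CPM in liver against at most 233 in any other library (4.87 ± 0.24).

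Iron and haem genes were less one-sided: 14 of 16 were tested, 10 were higher than the mean, 9 than each, 1 was lower and 3 were not called (median 2.31). Among all genes 27.3% were higher than the mean, 13.5% higher than each and 30.5% lower. The second transferrin receptor, listed as Trfr2, through which hepatocytes sense iron, had 151, 170 and 223 CPM in liver and at most 9.4 elsewhere (7.34 ± 0.41). Ceruloplasmin (Cp), the copper-carrying ferroxidase, had 895 to 1150 CPM in liver and at most 126 elsewhere. The first receptor, Tfrc, which most dividing and muscle cells use, was lower than the mean by 1.03 ± 0.23, since SM stood at 97.2 to 260 CPM while liver, BAT and IWAT overlapped at 11.7 to 28.4. Hemojuvelin (Hfe2), a partner in the control of hepcidin, had 27.8 to 61.3 CPM in liver and 222 to 471 in SM, with a BAT median of 8.86 and an IWAT median of 0.19. Its difference from the mean was 1.31 ± 0.66 (adjusted p = 0.092), and it passed the threshold with animal as a block (1.80, adjusted p = 0.0341). It also passed with limma voom (2.34, adjusted p = 0.00275), without the 3 libraries (2.34, adjusted p = 0.00559), without BAT3112 (1.61, adjusted p = 0.0296) and without IWAT3114 (1.58, adjusted p = 0.0425). Ferritin heavy chain (Fth1) was not called, at medians of 3480, 5040, 2610 and 3740 CPM in liver, BAT, IWAT and SM.

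Hormone receptors and the growth hormone axis held 18 of 20 tested genes higher than the mean, 13 higher than each, and 2 lower (median 4.30). Igf1, the growth factor through which growth hormone acts, had 792, 1220 and 1620 CPM in liver. It had 14, 17 and 62.2 in BAT, 97.8, 120 and 261 in IWAT and 32.5, 43.4 and 53.4 in SM (4.46 ± 0.25). Its receptor Igf1r lay the other way, lower than each tissue without overlap: 5.08 to 9.61 CPM in liver, 11.5 to 17.9 in BAT, 15 to 77.3 in IWAT and 30.2 to 47.4 in SM (-1.76 ± 0.27). Adra1b, the adrenergic receptor through which catecholamines drive hepatic glucose release, had 20.6 to 30.7 CPM in liver and at most 0.59 elsewhere. The vasopressin receptor Avpr1a had 21.3 to 53.8 CPM in liver and at most 4.7 elsewhere. Irs1, an insulin receptor substrate, was lower than the mean by 0.80 ± 0.20, with SM at 86.2 to 130 CPM and liver, at 20.7 to 43, overlapping with BAT and IWAT.

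Hepatocytes differ along the line from portal to central vein. Of genes known to mark the central end, 11 of 12 were higher in liver than the mean and 10 than each (median 6.80). Of the portal end 13 of 14 were higher and 11 than each (median 8.12). Rhbg, an ammonium transporter of the innermost central cells, had 3.94 to 8.15 CPM in liver, 1 tag in BAT, 7 in IWAT and 0 in SM. Axin2, a general target of Wnt signalling as well as a central marker, was lower than the mean (-1.18 ± 0.32), at a median of 11.7 CPM against 38.2 in BAT, 24.5 in IWAT and 16 in SM. Sdhd, listed as portal but a subunit of a respiratory complex in all cells, was not called.

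The transcription factors that specify and maintain hepatocytes ranged from nearly absent elsewhere to widely shared. Of 30 listed, 28 were tested, 24 were higher than the mean, 20 than each, none was lower and 4 were not called (median 6.65, or 6.04 with the limit, and 7.01 without the 3 libraries). Hnf4a, the nuclear receptor on which hepatocyte identity rests, lies on chromosome 2 at 163506811 to 163572907. It had 210, 246 and 307 CPM in liver, 0, 0.06 and 2.85 in BAT and 0.41, 0.94 and 14.5 in IWAT, with 2 tags in all of SM. The highest outside values were again BAT3106 and IWAT3103, and the fold change of 9.07 ± 0.67 became 10.76 without the 3 libraries. Foxa2, a pioneer factor of gut endoderm, had 32.2, 55.8 and 105 CPM in liver, at most 0.62 in BAT, 4.59 in IWAT and 0 tags in SM. Onecut1, which acts in liver and pancreas development, varied widely among liver libraries, at 7.84, 8.46, 9.03, 27.7, 52.5 and 55.8 CPM. It had 2, 1 and 1 tags in BAT, IWAT and SM, so liver stood above every other library all the same. Its relative Onecut2 was steadier, at 101, 122 and 164 CPM in liver.

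Nuclear receptors of bile acids and foreign compounds behaved like Hnf4a. Nr1h4, the bile acid receptor, had 34.9 to 49 CPM in liver, 6 tags in all of BAT, at most 3.47 CPM in IWAT and 2 tags in SM (7.93 ± 0.53, and 9.22 without the 3 libraries). Nr1i2 and Nr1i3, which sense drugs and steroids, had 25.8 to 41.5 and 15.5 to 36.4 CPM in liver and 0 tags in SM. Other factors were shared with fat. Cebpa, which drives both hepatocyte and adipocyte differentiation, had 1470, 1620 and 1710 CPM in liver, 1590, 1760 and 2640 in BAT and 1130, 1480 and 2020 in IWAT. SM ran from 27.1 to 109, and liver was higher than the mean (1.41 ± 0.20) but overlapped with both fats. Ppara, the receptor that turns on fatty acid oxidation, had 328, 435 and 457 CPM in liver and overlapped with BAT at 227, 399 and 461, while IWAT reached 95.9 and SM 30.1. Rxra, the partner of most of these receptors, was higher than each tissue without overlap, at 434 to 560 CPM in liver and at most 362 in SM (1.83 ± 0.19). Cebpb, Zhx2 and Esr1 were among those not called, with differences between -0.49 and -0.44.

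**Figure D3:**
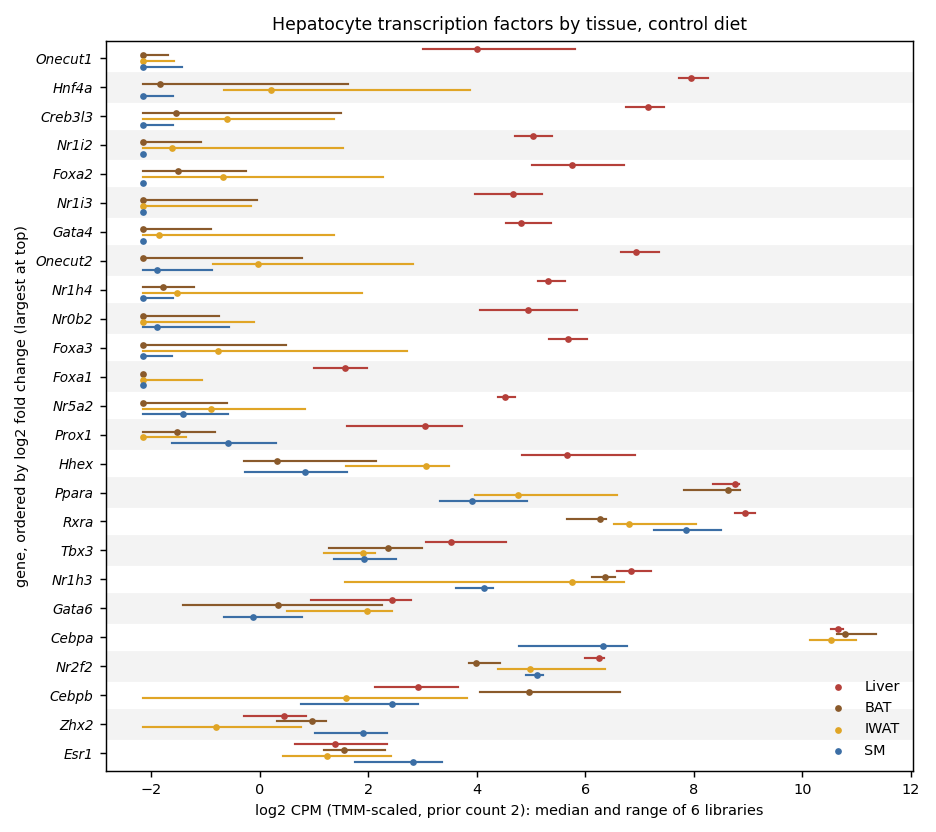
Levels of 25 hepatocyte transcription factors as log2 CPM (prior count 2), with a point at the median and a line from the lowest to the highest of 6 libraries per tissue. Hnf4a lies at 210 to 307 CPM in liver and far below it elsewhere, whereas Cebpa overlaps between liver (1470 to 1710 CPM) and both fats.

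Cells of the liver other than hepatocytes were also visible. Of 10 tested macrophage and Kupffer cell markers 8 were higher in liver than the mean and 4 than each tissue. Marco and Timd4 were not called, and the median log2 fold change was 2.03. The same counts were 6 and 4 of 7 endothelial markers, 6 and 5 of 6 stellate cell markers, and 3 and 1 of 4 bile duct markers. Their medians were 3.6, 3.17 and 2.07, and Lyve1 of the endothelium and Krt19 of the bile duct were not called. Over all genes 27.3% were higher than the mean and 13.5% than each. The 12 macrophage and Kupffer cell markers summed to 310 to 520 CPM in liver, against medians of 39.7 in BAT, 107 in IWAT and 42 in SM. IWAT3107, the library rich in lymphocyte markers, reached 356 and so overlapped with liver. The members with the largest fold change of their lists were Clec4f and Clec4g. Clec4f, the Kupffer cell lectin, had means of 172 CPM in liver, 0.70 in BAT, 2.97 in IWAT and 0.04 in SM (8.40 ± 0.69). Clec4g, a lectin of sinusoidal endothelium, had a mean of 131 CPM in liver and 1.17 in IWAT (8.43 ± 0.55). Of the 7 tested lymphocyte markers 0 were called, with liver sums of 12 to 24.3 CPM. Red blood cell markers summed to 96.6 to 157 CPM in liver against at most 16.2 in any other library. Of 8 listed only 3 were tested (Alas2, Hba-a1 and Hba-a2). All 3 were higher than the mean but only 1 than each tissue, with log2 fold changes from 1.21 to 4.74 (median 1.50). Hbb-b1 and Hbb-b2 were not detected in any control library. The part of red blood cells in other liver values was not tested.

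Genes of fat and muscle cells, the tissues compared with, were lower in liver. All 20 adipocyte genes were lower than the mean and 15 than each (median -6.27). Lpl, lipoprotein lipase, which releases fatty acids from circulating lipoproteins, had 27.2, 41 and 99.4 CPM in liver. It had 2320, 2570 and 3040 in BAT, 2760, 6720 and 10600 in IWAT and 623, 872 and 1380 in SM (-5.52 ± 0.40). Plin4, a coat protein of lipid droplets, had 2.48 to 9.1 CPM in liver and at least 147 in every other library (-6.86 ± 0.38). Cd36, a fatty acid translocase, had 51.5 to 120 CPM in liver and 295 to 4120 elsewhere. Liver libraries held between 37.2 and 201 CPM of white adipocyte markers, with 3 to 7 of 7 found, and their part in the liver values of these genes was not tested.

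Of 18 genes of brown fat thermogenesis 16 were lower, 8 of them than each tissue, and 2 were higher (median -5.75, or -5.32 with the limit). Ucp1, the uncoupling protein of brown fat, had means of 0.54 CPM in liver, 2587 in BAT, 141 in IWAT and 2.96 in SM. Slc27a2, an acyl-CoA synthetase for very long fatty acids and bile acids, had 724, 860 and 1230 CPM in liver and 39.6 to 94.7 in BAT (7.37 ± 0.43). Elovl3, a fatty acid elongase, had means of 350 in liver and 247 in BAT and was higher than the mean but not than each.

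Muscle fibre genes were lower in 32 of 34 cases (median -4.94), but only 1, the myosin light chain Myl1, was lower than each tissue. The shares of all genes were 30.5% and 11.8%. Myl1 had 16.1, 50.4 and 269 CPM in liver, 208 to 5360 in BAT, 77.4 to 728 in IWAT and 44100 to 120000 in SM. Liver3114, the highest liver library, overlapped with both fats, and the other liver libraries, at 58.7 or less, did not. Without Liver3114 the list's median was -6.90 and Myl1's fold change went from -5.48 to -6.37. Myoglobin (Mb) was not called (-3.02 ± 1.50), and Tpm3, a tropomyosin found in most cells, was higher by 0.74 ± 0.22. Collagens and matrix genes were lower in 28 of 31 tested, 24 of them than each (median -2.61). Sparc, which binds collagen, had 96.2 to 178 CPM in liver, 557 to 1090 in SM, 1120 to 1300 in BAT and 2010 to 6200 in IWAT (-3.52 ± 0.27). Fibronectin (Fn1), which hepatocytes secrete into plasma, was the exception, with a mean of 415 CPM in liver against 10.2, 81.4 and 46.3 (3.62 ± 0.34). Decorin (Dcn) and biglycan (Bgn) were not called.

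**Figure D4:**
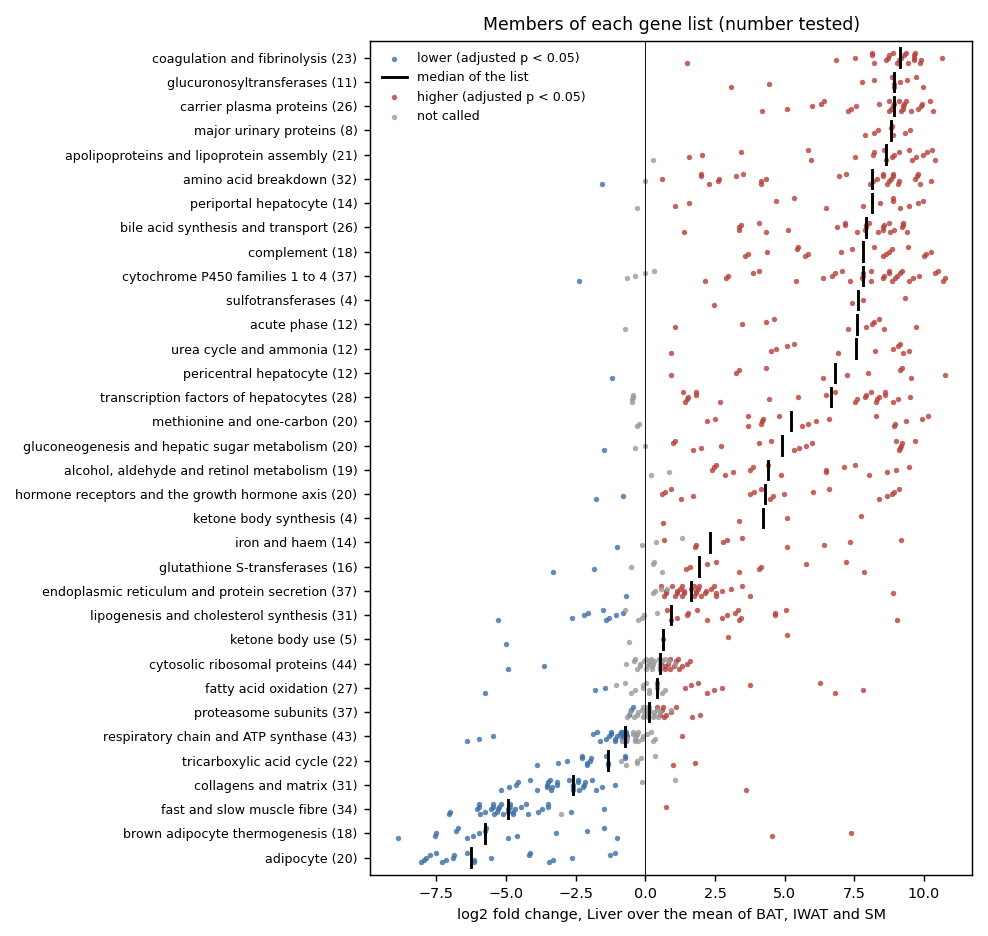
Log2 fold change of liver over the mean of the 3 other tissues for each tested member of 34 gene lists, with 1 point per gene coloured by its call and a bar at the list's median. Plasma protein lists centre near 9 on this scale, respiratory chain and ribosomal protein lists near 0, and muscle and adipocyte lists at -4.94 and -6.27.

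The genes furthest below the nearest other tissue included 3 transcription factors of development. Tcf15, of somite-derived and endothelial cells, had 0 tags in liver and 6.69 to 13.5 CPM in BAT, 2.23 to 14 in IWAT and 3.38 to 12.9 in SM, at least 154, 153 and 141 times lower in liver. Meox2, a homeobox gene of limb muscle and vessels, had 8 tags in liver and 30.4 to 335 CPM elsewhere. Hoxa10, which marks posterior body position, had 0 tags in liver, 9.08 to 31.2 CPM in IWAT and 38.2 to 56.5 in SM. In BAT its median was 0.08 CPM and it had 120 tags in all, nearly all of them in BAT3106 (7.24 CPM), so it reached the count minimum for this group through that library. Its fold change of -9.62 ± 1.50 became -8.20 without the 3 libraries.

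The same group held Ucp3, an uncoupling protein of muscle and brown fat mitochondria, at 0 to 1.64 CPM in liver and 24.8 to 656 elsewhere (-8.01 ± 0.71, and -8.87 without Liver3114). Ppp1r1a, an inhibitor of protein phosphatase, had 8.85 CPM in Liver3114, the highest liver library, and a liver median of 0.31. Its fold change went from -7.46 to -10.18 without that library. Phlda3 and Ly6c1, the latter of endothelial cells and monocytes, had liver medians of 1.88 and 1.68 CPM and at least 115 in every library of the other tissues. Chl1 and Tmem182 had 0 tags in liver, while Timp4, an inhibitor of matrix proteases, had 1.

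Energy metabolism common to all tissues was divided. Its counts are to be read beside 27.3% of all genes higher and 30.5% lower. Of 27 genes of fatty acid oxidation 11 were higher, 3 lower and 13 not called, with a median of 0.42 that turned to -0.09 without scaling factors. Cpt1a, the liver form of the gate of fatty acids into mitochondria, had 182 to 456 CPM in liver and at most 95.2 elsewhere (3.75 ± 0.22), whereas its muscle form Cpt1b, also lower than each tissue, had 1 tag in liver against 201 in BAT, 29 in IWAT and 179 in SM. The peroxisomal thiolase Acaa1b had 1300 to 1810 CPM in liver and at most 272 elsewhere (6.28 ± 0.39). Tricarboxylic acid cycle genes were lower in 14 of 22 and higher in 2 (median -1.35). Idh3a, a subunit of isocitrate dehydrogenase, had 88.5, 121 and 187 CPM in liver, 2590 to 4120 in BAT, 453 to 3280 in IWAT and 1040 to 1910 in SM (-3.88 ± 0.38). Citrate synthase (Cs) was lower by 2.26 ± 0.25, also without overlap. Both higher genes, Pcx (pyruvate carboxylase) and Suclg2, were higher than the mean but not than each (0.98 ± 0.39 and 1.78 ± 0.24).

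Respiratory chain and ATP synthase genes were lower in 25 of 43 tested, higher in 1, and lower than each tissue in 3 (median -0.74). Of all genes 30.5% were lower, 27.3% higher and 11.8% lower than each. Cox7a1, the subunit isoform of muscle and brown fat, had 2.55 to 34 CPM in liver, 1290 to 2510 in BAT, 45.4 to 472 in IWAT and 768 to 1080 in SM. Cytochrome c (Cycs) had 788, 886 and 964 CPM in liver and overlapped only with IWAT, whose lowest library had 686 (-1.89 ± 0.29). Of 31 genes of lipogenesis and cholesterol synthesis 17 were higher, 9 lower and 5 not called (median 0.91). Fdps, which makes a precursor of cholesterol, had 270, 336 and 473 CPM in liver and at most 108 elsewhere (2.93 ± 0.17). Fasn, fatty acid synthase, had means of 474 CPM in liver, 17251 in BAT and 5604 in IWAT and was lower (-2.20 ± 0.56). Scd2, a stearoyl-CoA desaturase, had 4.61 to 7.5 CPM in liver and at least 44.9 elsewhere (-5.29 ± 0.29).

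Genes of the endoplasmic reticulum and of protein secretion were higher in 32 of 37 tested, 24 of them than each tissue, with a modest median of 1.62. P4hb, protein disulfide isomerase, had 564, 694 and 777 CPM in liver and at most 129 in any other library (3.45 ± 0.19). Its relative Pdia4 had 42.9 to 78.7 against at most 10.3 (3.77 ± 0.16). Dnajc3, a co-chaperone that restrains a kinase of the stress response, was higher by 2.46 ± 0.15. Only Srp14, of the signal recognition particle, was lower (-0.70 ± 0.29). Ribosomal protein and proteasome counts are to be read beside 27.3% of all genes higher and 30.5% lower. Of 44 tested cytosolic ribosomal protein genes 14 were higher, 2 lower and 28 not called, with a median of 0.52 that became -0.02 without scaling factors. Of 37 proteasome genes 10 were higher, 3 lower and 24 not called, with a median of 0.13 that became -0.07 with upper-quartile factors and -0.31 with none.

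The same contrast in the mice on Methionine Restriction used other animals (6 Liver, 6 BAT, 6 IWAT and 5 SM libraries). There 3084 of 12666 genes (24.3%) were higher in liver and 3308 (26.1%) lower. Among the restricted libraries, SM3101 and IWAT3116 had the lowest rank correlation with their own tissue (medians of 0.637 and 0.709). They also had the fewest genes detected (11127 and 11901). Without SM3101, 3482 genes were higher and 3760 lower. The shares that follow were not computed without these libraries. Of the genes higher in control liver, 3446 were tested in these animals, 2737 were called higher (79.4%) and 1 lower, and the 2737 were 88.7% of the higher calls there. Of 3729 genes lower in control liver, 2993 (80.3%) were called lower and 3 higher. Of the genes higher than each tissue, 1400 of 1707 (82%) were called so again and 0 the opposite, and of those lower than each, 973 of 1459 (66.7%). Across 12457 genes the fold changes of both diets had a Pearson r of 0.972 and a Spearman rho of 0.952. Genes are not independent, and both sets share the count tables of the 4 tissues.

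**Figure D5:**
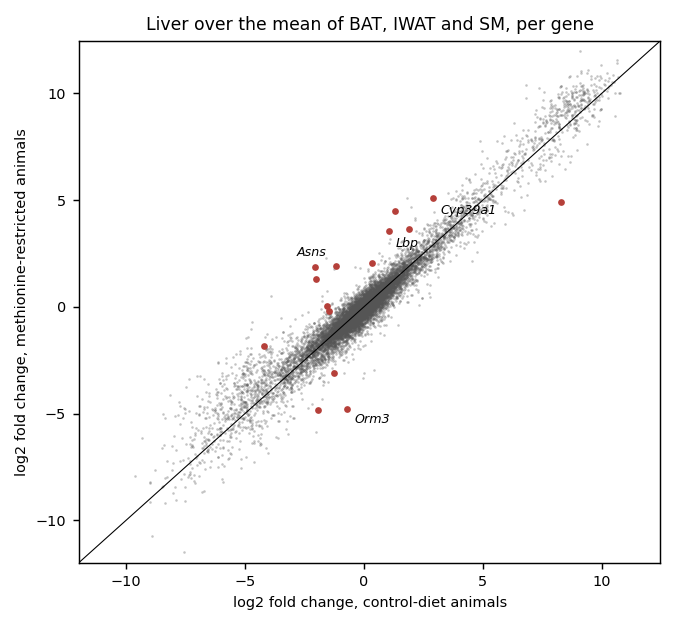
Log2 fold change of liver over the mean of the 3 other tissues in control-diet animals (x axis) and methionine-restricted animals (y axis), with 1 point per gene for 12457 genes and the line of equality. Red points are the 15 genes of this set whose liver difference depended on diet, such as Asns (-1.17 on the Control diet) and Orm3 (-0.72).

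The difference itself depended on diet in 18 of 13541 genes (0.133%) by an interaction test over all 47 libraries, against 601 at an unadjusted p under 0.05. The count was 34 without scaling factors, 28 without SM3101 of the restricted diet and 12 without Liver3115. Asns, asparagine synthetase, a target of the amino acid response, was lower in control liver than the mean of the other tissues (-1.17 ± 0.33), at 5.87, 20.2 and 48.4 CPM against BAT and IWAT medians of 138 and 112. In the joint fit its liver mean was 26 CPM ± 18.4 (SD, n = 6) on the Control diet and 266 ± 48.5 on the restricted one, while the means of BAT, IWAT and SM differed by 0.25 to 0.35 between diets on the log2 scale. Liver overlapped with SM (7.07 to 13.5 CPM) on the Control diet. The liver difference was thus 3.06 ± 0.45 lower on the Control diet (adjusted p = 0.00014). Cyp39a1, which hydroxylates oxysterols on the way to bile acids, had 52.4 ± 22.2 CPM in control liver and 231 ± 24 in restricted liver, and was already higher than each tissue on the Control diet. Lbp, which binds bacterial lipopolysaccharide, had a liver mean of 106 CPM on the Control and 190 on the restricted diet. Its means were 240 and 34.5 in IWAT, 11.3 and 3.79 in BAT and 44.3 and 30.2 in SM, each lower on the restricted diet. Orm3 had 2.12 ± 1.03 CPM in control and 0.208 ± 0.146 in restricted liver, and 26.6 and 73.2 in BAT (interaction 4.09 ± 0.66). Htatip2 had 54.8 and 147 CPM in control and restricted liver, and the ferritin receptor Scara5 had 8.5 and 0.806. The markers did not pass: Alb gave an interaction of -0.87 ± 1.02 and Apoa1 of -0.20 ± 1.26, both with an adjusted p of 1.00.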

How the data were processed

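SOLiD SAGE 3′ tag libraries were made from 47 samples, and 24 control-diet libraries were compared here. The authors deposited raw counts of tags per gene symbol, 1 table for each of 4 tissues. Fragments were mapped uniquely to mouse RefSeq genes per the labels, and the submitters' processing notes name the builds mm10 and GRCm38.p1 and DESeq. For the aligner and the counter nothing is stated in the sources used here. The deposited normalized values were scaled within each tissue and were not used. Of 26608 symbols in a table, 26583 were joined, since 25 are dates made from gene symbols by a spreadsheet. A tissue and its table cannot be told apart.

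The tests were edgeR 4.0.16 quasi-likelihood F tests (R 4.3.3, limma 3.58.1) on the counts with TMM factors, after filterByExpr with a minimum count of 10, which kept 99.26 to 99.93% of the tags of a library. The contrast was Liver minus the mean of BAT, IWAT and SM. A gene was higher or lower than each tissue when all 3 pairwise contrasts had that sign and the largest of their p-values passed. All p-values were adjusted by Benjamini-Hochberg over all genes tested at a threshold of 0.05, SE was the log2 fold change divided by the root of F, and glmTreat tested against 2-fold. The diet interaction used all 47 libraries. Fold ratios between tissues are ratios of mean CPM. The method was also run on simulated counts in which few genes changed, as many up as down. That run cannot speak to scaling where most genes differ, as they did here.

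Replicates are animals. Same-numbered libraries are taken to come from the same animal, since the labels use the same numbers in every tissue, which they do not explain in words. The 36 correlations of their deviations from the group means lay between -0.185 and 0.313, with 10 over 0.1. Between Liver and IWAT the mean was 0.12 for the same number and -0.0238 for different numbers. There 5 of 6 animals correlated best with their own number. It was 3 between Liver and SM, 2 between BAT and IWAT and 0 in the other tissue pairs. The main test left animal out, and the fit with animal as a block is given below. No library looked like a copy of another: among 115 pairs within groups the lowest chi-square of the counts per degree of freedom was 13.09. Intervals of 3 counts cover counting error only.

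The members and gene lists were chosen with earlier results of these data known. The genes named are Alb and Apoa1, the 10 with the highest mean CPM in liver, the 12 furthest above and the 12 furthest below the nearest other tissue (at least 20 mean raw counts in liver, or in each other tissue), up to 4 members per list with the smallest p, members of liver lists that were lower or not called, the transcription factors, and 6 genes of the diet interaction. Predicted genes that carry no proper name entered the counts only. Other list members, among them Ucp1, Fasn, Fn1, Mb, Tpm3, Elovl3, Cpt1b, Pcx, Clec4f and Clec4g, were named after their values were seen. The alternatives were other scaling factors, DESeq2 1.42.0, limma voom, other count filters, a block by animal, a fit on all 47 libraries, each library left out, and groups of libraries left out. The set without BAT3106, IWAT3103 and IWAT3114, and the alternatives for the diet comparisons, were chosen after seeing the data. Some genes are not reported here. Positions are from RefSeq on GRCm38.p6, and tags were predicted from GENCODE vM1 coding transcripts.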

Additional observations from a re-analysis of the deposited data

Results flagged for a closer look

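Among 566 sets of 6 libraries (1 of the genes chosen by the naming rule, in 1 tissue, with at least 60 tags), 43 had a library far from the other 5, where chance gives about 1 in 20. Values are log2 CPM, with the nearest other library in parentheses. Liver3103 was high in Cyp4a10 at 3.63 (2.84). It was low in Serpina1a at 6.74 (7.52). Liver3106 was high in Plg at 11.2 (10.8). It was low in Bckdha at 5.62 (6.42). Liver3107 was high in Aldh1b1 at 5.81 (4.67). Liver3114 was high in Phlda3 at 2.84 (1.41) and Ppp1r1a at 3.18 (-0.46). Liver3115 was low in Apof at 4.83 (5.48). BAT3106 was high in Ahcy at 5.81 (5.02), Ahsg at 4.31 (-2.15), Alb at 11.3 (6.6), Apoa1 at 8.38 (2.65), Apob at 3.35 (-0.892), Apoe at 9.69 (7.92), Ass1 at 4.84 (2.64), Cp at 6.1 (4.86), Fgl1 at 2.8 (0.881), Gsta3 at 7.39 (4.88), Hoxa10 at 2.9 (-1.34), Igf1 at 5.96 (4.61), Mthfd2 at 1.4 (0.303), Mup10 at 2.61 (-1.33), Mup3 at 11 (5.88), Plg at 4.36 (-1.6), Serpina3k at 7.23 (2.11) and Ttr at 6.57 (1.14). It was low in Adh1 at 5.4 (6.7), Fmo1 at 2.84 (4.3) and Gsta4 at 6.44 (6.98). BAT3107 was high in Orm1 at 2.79 (1.8). BAT3115 was low in Adpgk at 3.4 (4.2), Fdps at 6.23 (6.57), Plin4 at 8.3 (8.99) and Rxra at 5.65 (6.22). IWAT3103 was high in Hnf4a at 3.89 (0.715) and Onecut2 at 2.82 (0.226). IWAT3106 was low in Gata6 at 0.511 (1.89). IWAT3107 was low in Pon3 at 3.93 (5.21). IWAT3114 was high in Plg at 3.7 (-0.722). SM3103 was high in Apoa1 at 3.19 (0.995). SM3106 was low in Axin2 at 3.42 (4) and Meox2 at 5.33 (5.96). SM3112 was low in Gstt1 at 2.98 (4.49). BAT3106, IWAT3103 and IWAT3114 are the fat libraries with the most hepatocyte transcripts (3150, 8700 and 2870 CPM summed), and Liver3114 is the liver library with the most muscle fibre transcripts (832 CPM). Whether those bear on each of these values was not tested.

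The liver difference depended on diet in the interaction test for 6 genes named in the report. As control minus methionine-restricted on the log2 scale, the values were Lbp -2.49, Asns -3.06, Cyp39a1 -2.19, Orm3 4.09, Htatip2 -1.69 and Scara5 2.89. All 6 stayed under the threshold of edgeR's adjusted p in the 50 settings run.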

How the results depend on the processing

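No gene called higher or lower in liver was called in the opposite direction in any setting run on the control libraries. Counts of higher and lower genes stayed within 1.5 times, except that without scaling factors 2254 genes were higher than the mean and 2518 lower than each tissue, and 34 depended on diet. With animal as a replicate block 3502 genes were higher and 3763 lower than the mean, 1713 and 1405 than each tissue, and 15 depended on diet; among named genes the block changed the call of Hfe2 as given above. Leaving out 1 library gave 3253 to 3822 genes higher and 3678 to 4225 lower than the mean, 1643 to 1941 higher and 1365 to 1712 lower than each, 1834 to 1993 and 2080 to 2295 past 2-fold, and 12 to 28 for diet. In restricted animals it gave 2708 to 3482 higher and 2968 to 3760 lower. Of the named genes' values, 4531 kept direction and call when a library was left out and 2209 under the other settings. Lbp (0.56, adjusted p = 0.0502) and Psmb4 (0.41, adjusted p = 0.203) lost the edgeR call without scaling factors. Calls were also gained, in 6 values with a library left out and 27 under other settings, among them Mat2a, which passed in 5 settings (DESeq2 adjusted p = 0.0267), Gsto1, Orm3, Fmo1, Cyp2j9, Esr1 and Sdhd. Depth limits genes with few tags, and unique mapping those whose tags are shared.

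The sign turned in 13 named genes, none of them called in the main fit, and in 3 list medians. The cause was not tested beyond the scaling itself. Some of these genes were called in other settings. Adpgk was lower without scaling factors (-0.474, edgeR adjusted p = 0.036). Htatip2 was higher with DESeq2 (0.342, adjusted p = 0.04) and without Liver3106 (0.425, edgeR adjusted p = 0.0304). Cyp2j9 was higher without IWAT3106 and IWAT3115 (0.711, edgeR adjusted p = 0.00421). Without scaling factors the log2 fold change was -0.264 for Aox1 (-0.0123 with upper-quartile factors), -0.117 for Cyp2j9, -0.215 for Gsta4, -0.211 for Gstm4, -0.173 for Htatip2, -0.204 for Pon3 and -0.159 for Steap3. The medians were then -0.0234 for ribosomal proteins, -0.0944 for fatty acid oxidation and -0.314 for the proteasome (-0.0716 with upper-quartile factors). With limma voom the values were 0.0323 for Adpgk, 0.366 for Bckdha, 0.243 for Cebpb, 0.0961 for Cyp1a1 and 0.308 for Cyp4f16. Bckdha was 0.00288 without a filter. With the replicate block it was 0.0852 for Bckdha and 0.0189 for Cyp4f16, and in the fit on all 47 libraries 0.0142 for Adpgk, 0.0259 for Bckdha and 0.0101 for Cyp4f16. Without BAT3106, IWAT3103 and IWAT3114 it was 0.303 for Bckdha and 0.0666 for Cyp4f16. Adpgk was 0.133 without IWAT3106 and IWAT3115, and 0.145 without IWAT3107 as well. With 1 library left out, values ran from -0.102 to 0.0400 for Adpgk, -0.0927 to 0.151 for Bckdha, -0.124 to 0.0569 for Cyp4f16 and -0.559 to 0.0782 for Mthfd2.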
